A study of Mus musculus with 6 samples.

Results

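Cytotoxic lymphocytes, which are natural killer (NK) cells and cytotoxic T cells, were followed in infarcted mouse hearts through 10 genes chosen by symbol. These were the granule genes Gzma, Gzmb, Prf1 and Nkg7, the receptor genes Klrd1, Klrk1, Klrb1c and Ncr1, and the regulators Eomes and Il2rb. All 10 were among the 26012 genes of the deposited table, and all 10 had a mean of at least 1 normalized count. RNA-seq was carried out on the ventricles of 6 C57BL/6 mice, all male and 8 weeks old, in which the left anterior descending coronary artery was tied to cause a myocardial infarction (MI). Of these, 3 received 10 μg of control mimic by intra-cardiac injection and 3 received 10 μg of miR-19a/miR-19b mimics, and all hearts were collected at day 4 after MI. No uninjured or uninjected heart was analysed here, so every value below is from an infarcted, injected ventricle. The comparison asks how the level of these genes differed between hearts given the 2 kinds of mimic.

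An NK cell or a cytotoxic T cell kills a target by releasing granules that carry perforin and granzymes. Perforin forms pores in the membrane of the target, and granzymes are proteases that pass through and cleave proteins inside it. NK cells weigh activating and inhibitory surface receptors before release, depend on IL-15 signalling for survival and are shaped by the T-box factors Eomes and T-bet. After an infarct, such lymphocytes enter the injured muscle together with a far larger number of neutrophils and macrophages.

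The injected miRNAs are printed because the search for matches below used their seed. Both mature sequences (RefSeq, GRCm38.p6) are given 5′ to 3′ with the seed, bases 2 to 8, in capitals. The mature miR-19a sequence is encoded at chr14:115044048-115044070 on the plus strand. The miR-19b sequence is encoded at chr14:115044358-115044380 on the plus strand and again at chrX:52741991-52742013 on the minus strand.
mmu-miR-19a-3p: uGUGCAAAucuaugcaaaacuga
mmu-miR-19b-3p: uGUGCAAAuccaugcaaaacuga
The seed was the same in both, so a transcript that matches one matches the other. Mimics are synthetic RNA duplexes that act as the mature miRNA, and the polyadenylated RNA libraries did not measure them.

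None of the 10 genes held a match to 7 or more bases of this seed in its longest annotated 3′ UTR (GENCODE M21). The 8-mer TTTGCACA was found in 0 of the 10, against 5.55% of 15820 tested genes with a 3′ UTR. The 7-mers TTTGCAC and TTGCACA were also found in 0 of the 10, against 12.4% and 12.5% of those genes. The 3′ UTRs searched were between 67 bases (Gzma) and 2463 bases (Klrk1) long. Gzmb alone held the 6-mer TTGCAC, which 25.9% of the genes held, at base 342 of its 581-base 3′ UTR. That stretch is shown with the 6-mer in capitals, in the sense of the transcript.
Gzmb 3′ UTR: tttcatacagTTGCACccaagttg
A match is a description of letters and not a measured site of pairing. Only these 3′ UTRs were searched, and pairing of the miRNAs with the 10 transcripts was not tested.

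The libraries held between 19398196 and 23645308 reads on genes, and mitochondrial genes took between 3.18% and 6.93% of them. All levels below are normalized counts as deposited, in which reads on a gene were scaled by a size factor per library. The 10 genes were sparse, with between 4 and 176 reads each per heart and between 212 and 692 reads for the 10 together. miR-19a/19b replicate 3 stood apart from the other hearts of its group. Its chi-square per degree of freedom against replicates 1 and 2 was 135 and 121, where those replicates gave 11.2 against each other and the control mimic hearts gave 10.3 to 26.6. This heart had the lowest summed cardiomyocyte markers of all 6, 307686 against 498035 to 913274, and more leukocyte marker signal than the other miR-19a/19b hearts, 19077 against 12251 and 13504. Sums of cell markers are therefore also given without it, an alternative chosen after seeing the data. Groups were compared with limma on log2(normalized count + 1), so a log2 difference understates the change of genes with few counts.

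All 10 genes were lower on average in hearts given miR-19a/19b mimics, with log2 differences between −1.31 and −0.32 and a median of −1.01, where the median of all 21126 genes tested was 0.00. For 7 of the 10 genes every miR-19a/19b heart was below every control mimic heart, against 5.3% of all genes tested, and 0 of the 10 were higher without overlap, against 3.9%. In the same fit, 8 of the 10 had an unadjusted p under 0.05 and a lower mean, against 2.63% of all genes. None of the 10 passed limma's test at an adjusted p under 0.05, and neither did any other gene (0% of 21126). The smallest adjusted p among the 10, by limma with Benjamini-Hochberg adjustment, was 0.815 for Gzma. On the recovered reads, edgeR's quasi-likelihood test called 0 of the 10 after adjustment, and DESeq2 called 0 of the 6 for which it gave an adjusted p, with 8 at an unadjusted p under 0.05 in each. The count of 8 fell to 4 without control mimic replicate 2 and to 5 without miR-19a/19b replicate 1, and it was 8 without miR-19a/19b replicate 3, where the median log2 difference was −0.99 and the adjusted p of the 10 genes by limma lay between 0.0799 (Gzma) and 0.845 (Klrb1c). In whole tissue, fewer cytotoxic cells and less RNA of these genes per cell cannot be told apart.

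**Figure D1:**
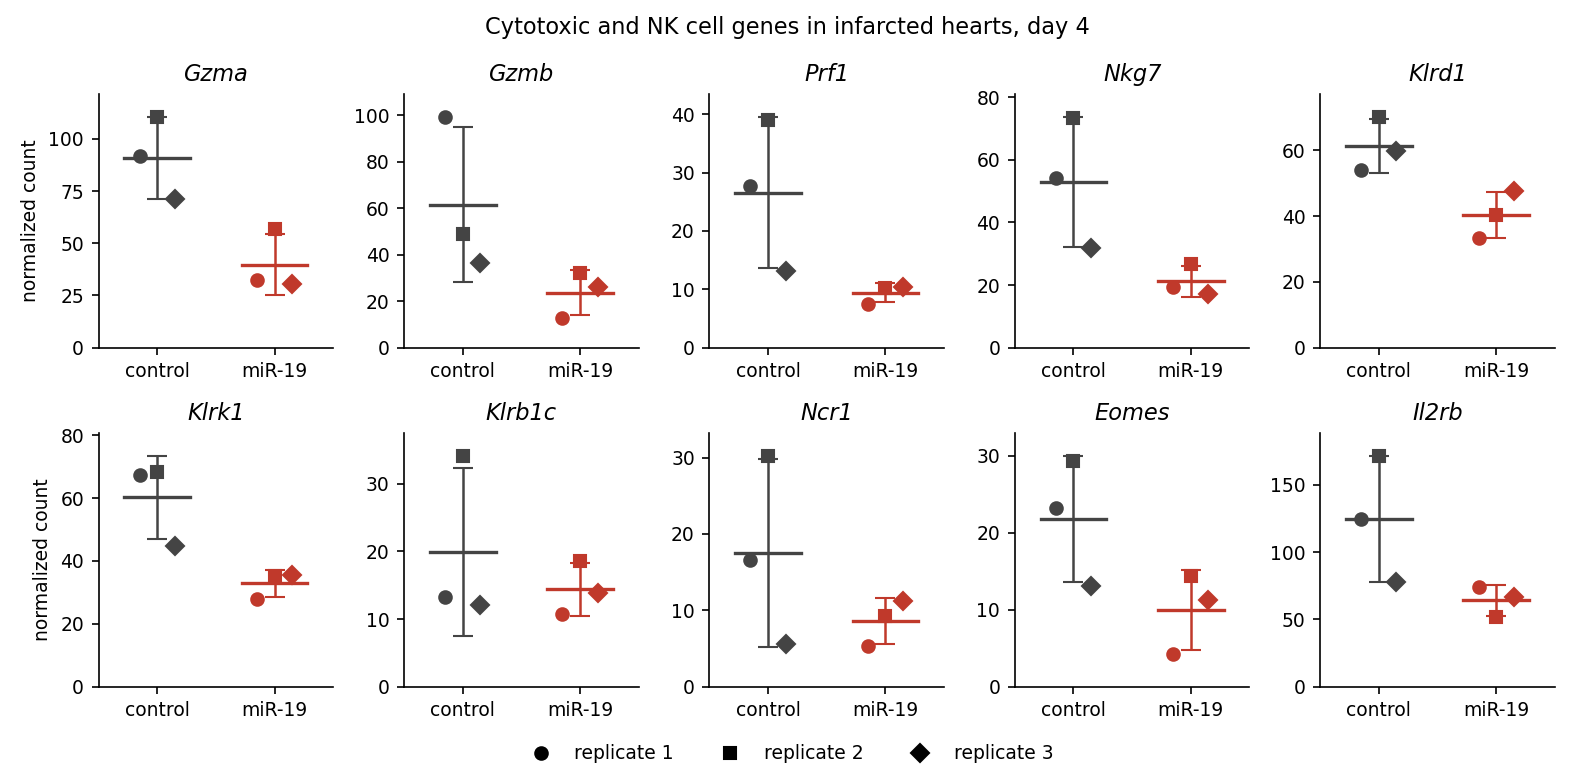
Normalized count (y axis, linear and from 0) of each of the 10 genes in the 3 control mimic hearts (grey) and the 3 miR-19a/19b hearts (red), with marker shapes for replicates 1 to 3, a line for the mean and bars for the SD. The groups are apart for 7 genes and overlap for Klrb1c, Ncr1 and Eomes, and control mimic replicate 3 is the lowest control in 9 of the 10 panels.

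Among granule genes, Gzma encodes granzyme A, a protease that cleaves after basic residues. Gzma (ENSMUSG00000023132, chr13:113093825-113100979, minus strand, GRCm38) was at 91.7, 110.3 and 71.0 normalized counts in control mimic replicates 1 to 3 and at 32.3, 56.7 and 30.3 in miR-19a/19b replicates 1 to 3. The lowest control mimic heart was above the highest miR-19a/19b heart. The means were 91.0 ± 19.6 and 39.7 ± 14.7 (SD, n = 3 each), so the level with miR-19a/19b was 43.7% of that with control mimic. By limma, the log2 difference was −1.21 (SE 0.28, 95% interval −1.85 to −0.57), with an unadjusted p of 0.00217 and an adjusted p of 0.815. Gzma kept an unadjusted p under 0.05 in all 15 alternative settings.

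Gzmb encodes granzyme B, which cleaves after aspartate and activates caspases in the target cell. Gzmb (ENSMUSG00000015437, chr14:56258856-56262260, minus strand) was at 99.5, 48.8 and 36.4 normalized counts with control mimic and at 12.9, 32.0 and 25.9 with miR-19a/19b mimics. The groups did not overlap, although control mimic replicate 3 and miR-19a/19b replicate 2 lay close together, and control mimic replicate 1 was far above every other heart. The means were 61.6 ± 33.4 and 23.6 ± 9.74 (SD, n = 3 each). The log2 difference was −1.31 (SE 0.43, 95% interval −2.29 to −0.33) by limma, with an unadjusted p of 0.0147 and an adjusted p of 0.9996. Without control mimic replicate 1 it was −0.90 with an unadjusted p of 0.0660 in limma, and without miR-19a/19b replicate 1 it was −0.94 with 0.0533.

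Prf1 encodes perforin, the pore-forming protein of the granule. Prf1 (ENSMUSG00000037202, chr10:61297836-61304263, plus strand) was at 27.6, 39.0 and 13.1 normalized counts with control mimic and at 7.53, 10.3 and 10.4 with miR-19a/19b mimics. The miR-19a/19b hearts lay within a narrow range below all control mimic hearts, which were spread widely. Between groups the log2 difference was −1.29 (SE 0.42, 95% interval −2.24 to −0.35) by limma, with an unadjusted p of 0.0129 and an adjusted p of 0.9996. Without control mimic replicate 2 it was −0.96, with an unadjusted p of 0.0576 in limma. The miR-19a/19b values rest on 7, 10 and 12 reads, and 7 reads carry an exact 95% Poisson interval of 2.81 to 14.4 reads. Such intervals cover counting error only.

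Nkg7 encodes a membrane protein of cytotoxic granules that takes part in their release. Nkg7 (ENSMUSG00000004612, chr7:43437073-43438249, plus strand) was at 54.2, 73.2 and 31.8 normalized counts with control mimic and at 19.4, 26.8 and 17.3 with miR-19a/19b mimics. Again no miR-19a/19b heart reached the lowest control mimic heart. The log2 difference was −1.23 (SE 0.34, 95% interval −1.997 to −0.47) by limma, with an unadjusted p of 0.00548 and an adjusted p of 0.948. The 4 granule genes summed to 232 ± 69.2 normalized counts with control mimic and to 93.9 ± 28.2 with miR-19a/19b mimics (SD, n = 3 each), and their median log2 difference was −1.26.

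The receptor genes lay closer together between the groups, with a median log2 difference of −0.66. Klrd1 encodes CD94, which pairs with NKG2 proteins to form a receptor for the MHC class I molecule Qa-1. Klrd1 (ENSMUSG00000030165, chr6:129591782-129598775, plus strand) was at 54.2, 70.3 and 59.8 normalized counts with control mimic and at 33.4, 40.2 and 47.5 with miR-19a/19b mimics. It had the smallest difference of the genes without overlap, and the control mimic hearts were less spread than for most other members. Between groups the log2 difference was −0.60 (SE 0.22, 95% interval −1.10 to −0.10) by limma, with an unadjusted p of 0.0237 and an adjusted p of 0.9996. The unadjusted p was above 0.05 without control mimic replicate 2 (0.0816) or replicate 3 (0.0522), without miR-19a/19b replicate 1 (0.0804) or replicate 2 (0.0519) and on the scale of leukocyte markers described below (0.179).

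Klrk1 encodes NKG2D, an activating receptor for ligands that stressed cells display. Klrk1 (ENSMUSG00000030149, chr6:129610323-129623864, minus strand) was at 67.4, 68.3 and 44.8 normalized counts with control mimic and at 27.97, 35.1 and 35.4 with miR-19a/19b mimics. The groups did not overlap. The log2 difference was −0.84 (SE 0.24, 95% interval −1.39 to −0.29) by limma, with an unadjusted p of 0.00752 and an adjusted p of 0.9996. Klrd1 and Klrk1 are neighbours in the NK gene complex of chromosome 6, where Klrb1c also lies.

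Klrb1c and Ncr1, the receptors most used to identify mouse NK cells, overlapped between the groups. Klrb1c (ENSMUSG00000030325, chr6:128778485-128789215, minus strand) encodes NK1.1 and was at 13.3, 34.2 and 12.1 normalized counts with control mimic and at 10.8, 18.6 and 13.8 with miR-19a/19b mimics. Apart from control mimic replicate 2, all hearts lay in one range. Its log2 difference was −0.32 (SE 0.43, 95% interval −1.30 to 0.67) with an unadjusted p of 0.483 in limma, and without control mimic replicate 2 it was 0.14 with an unadjusted p of 0.722. The interval spans both a lower and a higher level, so this measurement leaves the direction undetermined. Klrb1c also shares sequence with Klrb1a (92.3% identity over 780 bases) and Klrb1b (88.3% over 928 bases), and overlaps Gm44511 on the same strand, so its reads could be split among copies.

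Ncr1 encodes NKp46, an activating receptor largely restricted to NK cells and related innate lymphocytes. Ncr1 (ENSMUSG00000062524, chr7:4337724-4345164, plus strand) was at 16.6, 30.3 and 5.61 normalized counts with control mimic and at 5.38, 9.28 and 11.2 with miR-19a/19b mimics. Control mimic replicate 3 lay inside the range of the miR-19a/19b hearts. Between groups the log2 difference was −0.73 (SE 0.57, 95% interval −2.01 to 0.56) with an unadjusted p of 0.233 in limma. With 1 heart left out it ranged from −1.33 (unadjusted p 0.0204, limma, without control mimic replicate 3) to −0.21 (0.709, without control mimic replicate 2). The lowest values rest on 5 reads (95% interval 1.62 to 11.7) and 6 reads (2.20 to 13.1).

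Eomes encodes eomesodermin, a T-box transcription factor of mature NK cells and memory CD8 T cells. Eomes (ENSMUSG00000032446, chr9:118478212-118486132, plus strand) was at 23.2, 29.3 and 13.1 normalized counts with control mimic and at 4.30, 14.4 and 11.2 with miR-19a/19b mimics. Control mimic replicate 3 was below miR-19a/19b replicate 2, so the groups overlapped. The log2 difference was −1.12 (SE 0.48, 95% interval −2.20 to −0.04) by limma, with an unadjusted p of 0.0437 and an adjusted p of 0.9996. Without miR-19a/19b replicate 1, which held 4 reads, it was −0.66 with an unadjusted p of 0.150 in limma, and the p was also above 0.05 without control mimic replicate 1 (0.112) or replicate 2 (0.148). By limma without the filter on mean level the unadjusted p was 0.0800, on the scale of leukocyte markers 0.0685, and by limma-voom on recovered reads 0.0509. An antisense gene, Gm33460, overlaps its end, and reads of the 2 strands cannot be told apart without strand information.

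Il2rb encodes the receptor chain shared by IL-2 and IL-15 and had the most reads of the 10. Il2rb (ENSMUSG00000068227, chr15:78480553-78495066, minus strand) was at 124.9, 171.8 and 77.5 normalized counts with control mimic and at 74.2, 51.5 and 66.6 with miR-19a/19b mimics. The groups did not overlap, but control mimic replicate 3 and miR-19a/19b replicate 1 differed by little. Between groups the log2 difference was −0.89 (SE 0.29, 95% interval −1.54 to −0.24) by limma, with an unadjusted p of 0.0129 and an adjusted p of 0.9996. It was −0.63 without control mimic replicate 2, with an unadjusted p of 0.0543 in limma. Without miR-19a/19b replicate 2 it was −0.75 with an unadjusted p of 0.0519, and on the scale of leukocyte markers −0.66 with 0.0601, both by limma.

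**Figure D2:**
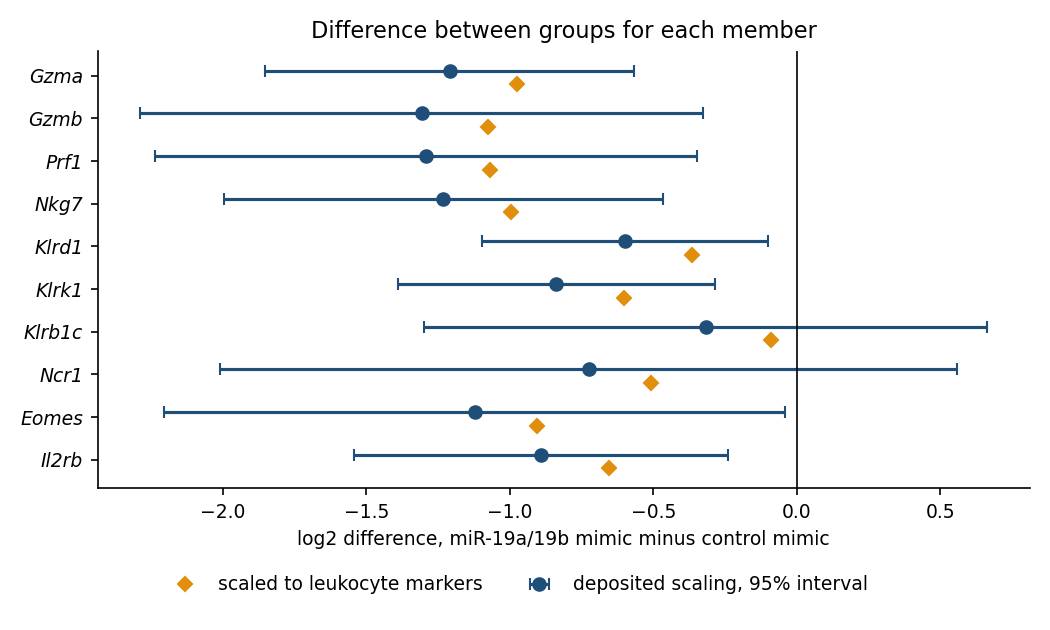
Log2 difference between miR-19a/19b and control mimic hearts (x axis, log2 of normalized count + 1) for each gene, by limma. Circles are estimates on the deposited scale and bars their 95% interval (3 hearts a group). Diamonds are estimates after scaling to leukocyte markers. The circles run from −1.31 for Gzmb to −0.32 for Klrb1c, and the intervals of Klrb1c and Ncr1 cross 0. The diamonds run from −1.08 to −0.09.

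The 10 genes ranked the control mimic hearts nearly alike. Control mimic replicate 2 was the highest of its group for 9 of the 10 genes and control mimic replicate 3 the lowest for 9. With miR-19a/19b mimics, replicate 1 was the lowest for 7 genes, and the highest was replicate 2 for 5 and replicate 3 for 4. The sum over the 10 genes was 572.5, 675.3 and 365.3 normalized counts in control mimic replicates 1 to 3 and 228.1, 294.9 and 269.7 in miR-19a/19b replicates 1 to 3. The miR-19a/19b mean was 49.1% of the control mimic mean. For any of the 7 genes without overlap, the exact permutation test (two-sided) gave p = 0.1, the smallest it can give with 3 hearts a group, and it gave 0.7 for Klrb1c, 0.4 for Ncr1 and 0.2 for Eomes.

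Levels of different genes can be set side by side only per length. Per kilobase of gene length, Gzma had the highest mean over the 6 hearts, 74.5 normalized counts, and was the highest of the 10 genes in 5 of them. In miR-19a/19b replicate 3 Klrd1 was above it, at 37.1 against 34.5. Nkg7, Klrd1, Il2rb and Gzmb followed at 40.6, 39.7, 33.9 and 30.0 normalized counts per kilobase. These neighbours were not separated in every heart, since Nkg7 was above Klrd1 in 2 hearts, Klrd1 above Il2rb in 3 and Il2rb above Gzmb in 4. The order also differed between groups, with Nkg7 at 58.0 and Klrd1 at 47.9 normalized counts per kilobase in control mimic hearts, and at 23.1 and 31.5 in miR-19a/19b hearts. Gzmb was above Prf1 in all 6 hearts. Prf1, Ncr1, Klrk1, Klrb1c and Eomes were at 8.76, 8.48, 6.47, 5.78 and 3.83, and no pair of neighbours among them kept its order in all 6 hearts.

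Markers of all leukocytes were measured beside these genes. The sum of Ptprc, Coro1a, Laptm5, Cd52 and Cd53 was 16446, 19517 and 16178 normalized counts with control mimic and was 12251, 13504 and 19077 with miR-19a/19b mimics. The groups overlapped through miR-19a/19b replicate 3. The miR-19a/19b mean was 86.0% of the control mimic mean with that heart and 74.1% without it, when both remaining hearts were below every control mimic heart. Per 1000 of these marker counts, the 10 genes summed to 34.8, 34.6 and 22.6 with control mimic and to 18.6, 21.8 and 14.1 with miR-19a/19b mimics. No miR-19a/19b heart reached the lowest control mimic heart on this ratio, and its mean was 59.3% of that with control mimic, or 66.0% without miR-19a/19b replicate 3. When every gene was scaled to these markers, a setting chosen after seeing the data, the median of all genes moved to 0.24 and the median of the 10 genes was −0.78. This scaling divides all genes of a heart by the same factor. The gap between these medians, −1.02, was therefore bound to stay near its unscaled size and says nothing about leukocyte content. All 10 stayed lower in the miR-19a/19b hearts on this scale, between −1.08 and −0.09. In this setting 4 of the 10 genes, Gzma, Gzmb, Prf1 and Nkg7, had an unadjusted p under 0.05 in limma, against 0.554% of all genes. Gzma, Prf1, Klrd1 and Klrk1 were without overlap, against 1.46%.

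T cell markers were measured in the same way. The CD3 chains Cd3d, Cd3e and Cd3g, which every T cell carries and NK cells lack at the surface, summed to 77.4, 53.7 and 37.4 normalized counts with control mimic and to 40.9, 38.1 and 28.5 with miR-19a/19b mimics. The groups overlapped, with a miR-19a/19b mean of 63.9% of control mimic. Cd8a, of cytotoxic T cells, was at 22.1, 41.0 and 20.6 with control mimic and at 12.9, 17.5 and 13.8 with miR-19a/19b mimics, without overlap (log2 difference −0.82, unadjusted p 0.0383 in limma). The other CD8 chain, Cd8b1, was at 11.1, 16.6 and 10.3 with control mimic and at 6.46, 12.4 and 8.64 with miR-19a/19b mimics. Its groups overlapped (log2 difference −0.44, unadjusted p 0.271 in limma). Per CD3 chain count, the 10 genes summed to 7.40, 12.6 and 9.78 with control mimic and to 5.58, 7.73 and 9.45 with miR-19a/19b mimics, and these ratios overlapped. How far T cells or NK cells carry the difference was not tested.

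Of 10 T cell markers, 1 had an unadjusted p under 0.05 and the median log2 difference was −0.39. The medians were −0.11 for 8 macrophage markers, −0.38 for 7 neutrophil markers and −0.26 for 6 B cell markers. They were 0.15 for 8 cardiomyocyte markers, 0.01 for 6 endothelial markers and −0.02 for 7 fibroblast markers. Of these lists, the neutrophil list held 1 gene with an unadjusted p under 0.05, Retnlg, which was at 48.6, 32.2 and 25.2 normalized counts with control mimic and at 3.23, 23.7 and 16.4 with miR-19a/19b mimics (log2 difference −1.52, unadjusted p 0.0341, limma), and the macrophage, B cell, cardiomyocyte, endothelial and fibroblast lists held 0. Over all 6 hearts the summed levels of each list overlapped between the groups, and none of their genes was at 0 in all hearts. Neutrophil markers summed to 1698 to 2037 normalized counts with control mimic and 838 to 2583 with miR-19a/19b mimics, and macrophage markers to 77000 to 90883 and 63735 to 97543. Cardiomyocyte markers summed to 498035 to 658015 and 307686 to 913274, fibroblast markers to 645506 to 794276 and 548411 to 898113, and B cell markers to 284.0 to 323.0 and 224.8 to 385.5. Endothelial markers summed to 21440 to 27787 with control mimic and to 24063 to 25144 with miR-19a/19b mimics. Several of these overlaps rested on miR-19a/19b replicate 3. Without it, the summed T cell, B cell, macrophage and neutrophil markers were below every control mimic heart in both remaining hearts, at 89.4%, 76.9%, 83.6% and 60.5% of the control mimic mean. Single genes weigh heavily in such sums. With control mimic, Thy1 held a mean of 1923 of the 2208 normalized counts of the T cell sum, and Csf3r 976 of the 1895 of the neutrophil sum. Over the 6 hearts Thy1 was at 1086 normalized counts per kilobase, where Cd3d, Cd3e and Cd3g were at 12.2, 9.97 and 14.5. The T cell sum therefore mostly followed Thy1, and neither sum measures a number of cells. The CD3 chains alone still overlapped without miR-19a/19b replicate 3, at 70.4% of the control mimic mean. Cardiomyocyte markers were then above every control mimic heart, at 149% of that mean, while endothelial and fibroblast markers still overlapped. The 10 genes were at 48.6% of the control mimic mean without this heart. Cardiomyocyte markers, of heart muscle in general, were present in every heart. The part of these cells in the difference of the 10 genes was not tested.

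**Figure D3:**
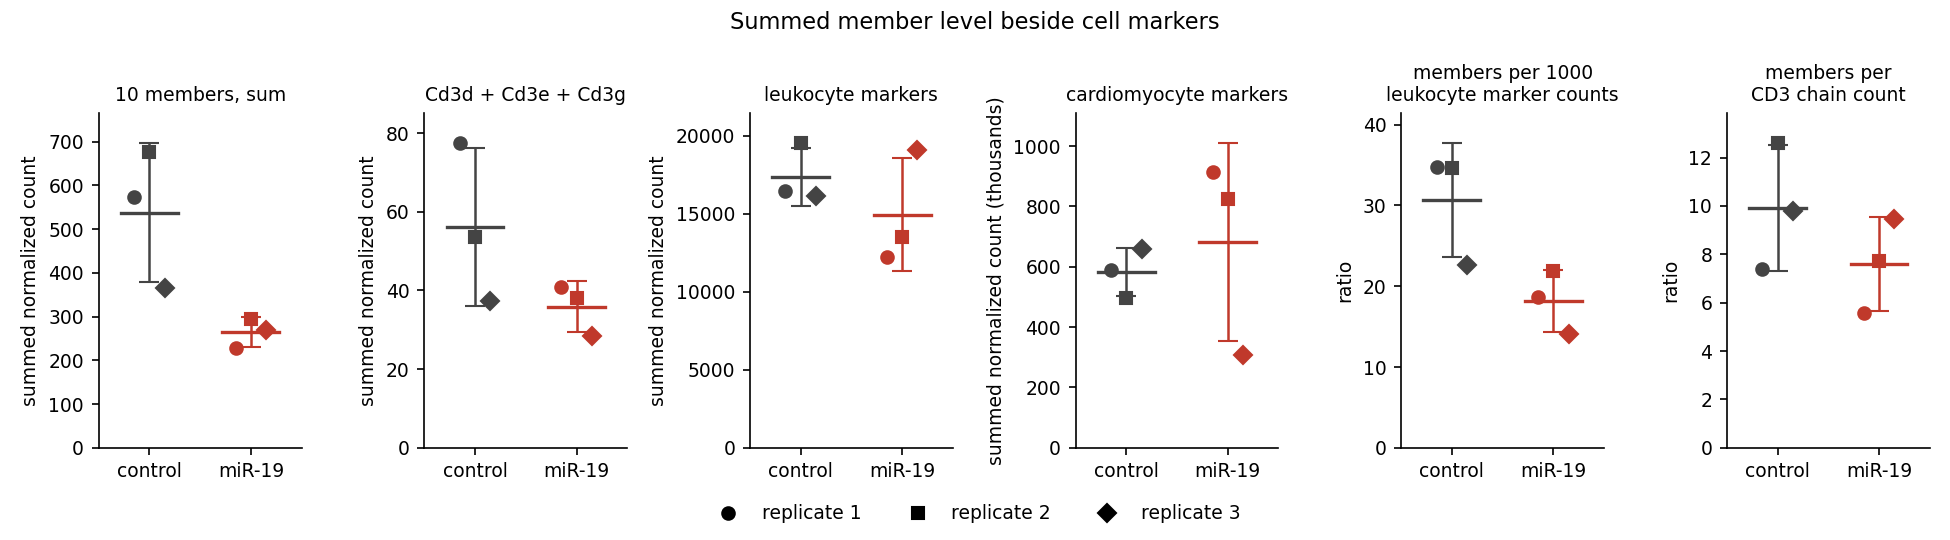
Summed normalized counts per heart (y axes, linear and from 0, cardiomyocyte markers divided by 1000) of the 10 genes, the CD3 chains, leukocyte markers and cardiomyocyte markers, and the ratios of the 10 genes to leukocyte markers and to CD3 chains, with control mimic in grey and miR-19a/19b in red. Lines are means and bars the SD of 3 hearts, and the groups are apart for the sum of the 10 genes and for its ratio to leukocyte markers.

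Other genes of the same biology were taken from 7 lists with 129 genes, of which 123 were in the table and 117 had a mean of at least 1. None passed an adjusted p under 0.05 in limma. An unadjusted p under 0.05 was reached by 23 with lower and 2 with higher levels in the miR-19a/19b hearts, and 26 were lower and 2 higher without overlap between groups (5.3% and 3.9% of all genes). Their median log2 difference was −0.27. These counts may be read against the 2.63% of all genes at an unadjusted p under 0.05 and lower, and the 1.39% that were higher. The total of 25 fell to 9 without control mimic replicate 1 and to 14 without control mimic replicate 2, and it was 46 without miR-19a/19b replicate 3.

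Among 20 further genes of granules and killing, 3 were lower at an unadjusted p under 0.05 and the median log2 difference was −0.14. Ctsw, which encodes cathepsin W of cytotoxic lymphocytes, was at 87.3, 85.9 and 63.5 normalized counts with control mimic and at 29.0, 50.5 and 46.7 with miR-19a/19b mimics. Its groups did not overlap (log2 difference −0.92, unadjusted p 0.00651 by limma). Stx11, a syntaxin needed for granule fusion, and Serpinb9, an inhibitor of granzyme B, had log2 differences of −0.41 and −0.29. Gzmm, a granzyme typical of NK cells, was at 31.0 ± 0.206 against 34.2 ± 6.80 normalized counts (SD, n = 3 each). It was picked from the list after its values were seen.

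Among 26 further NK receptor genes, 4 were lower at an unadjusted p under 0.05, 7 were lower without overlap and the median log2 difference was −0.55. Klri2, which encodes a lectin-like receptor, was at 19.9, 24.4 and 17.8 normalized counts with control mimic and at 2.15, 7.22 and 6.05 with miR-19a/19b mimics. All control mimic hearts were far above all miR-19a/19b hearts (log2 difference −1.92, SE 0.43, unadjusted p 0.00168, adjusted p 0.791 by limma). The Ly49 receptor genes Klra8, Klra4 and Klra1 had log2 differences of −1.10, −1.26 and −1.38, with means of 16.6, 9.47 and 3.75 normalized counts in control mimic hearts and 7.21, 3.42 and 0.920 in miR-19a/19b hearts. Ly49 genes form a family of close copies, so reads could be split among them and these values are uncertain.

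The adaptor genes that carry receptor signals had negative log2 differences in 12 of 12 cases (49.2% of all genes were negative), with a median of −0.23, and 2 of them had an unadjusted p under 0.05. Lck, a kinase of T and NK cells, was at 68.5 ± 13.2 normalized counts with control mimic and at 43.6 ± 7.90 with miR-19a/19b mimics, a log2 difference of −0.64. Sh2d1b1, which encodes the adaptor EAT-2 of NK cells, had a log2 difference of −0.48. On the scale of leukocyte markers, the median of these 12 genes was 0.01, where that of all genes was 0.24. On that scale 5 of the 12 were negative, against 3752 of 21126 genes.

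Of 12 tested ligands of NK receptors and death receptors on target cells, 3 were lower and 1 was higher at an unadjusted p under 0.05. H2-T23, which encodes Qa-1, the ligand of CD94 with NKG2A, was at 2611, 2947 and 2738 normalized counts with control mimic and at 1653, 2039 and 2186 with miR-19a/19b mimics. The groups were apart (log2 difference −0.51, unadjusted p 0.00307 by limma). The classical MHC gene H2-K1 and the NKG2D ligand gene H60b had differences of −0.45 and −1.24. Fas, the receptor of the death ligand FasL, was higher, at 335 ± 18.0 normalized counts with control mimic and at 402 ± 35.8 with miR-19a/19b mimics, a log2 difference of 0.26.

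Of 15 transcription factors of NK cells, 2 were lower and 1 was higher at an unadjusted p under 0.05, with a median of −0.22. Tbx21 encodes T-bet, the T-box factor that acts beside Eomes. It was at 29.8, 18.5 and 11.2 normalized counts with control mimic and at 7.53, 6.19 and 5.19 with miR-19a/19b mimics, without overlap (log2 difference −1.43, SE 0.41, unadjusted p 0.00711, adjusted p 0.995 by limma). Bhlhe40 had a difference of −0.23. Klf2, a factor of quiescent lymphocytes that endothelial cells also express, had a difference of 0.39.

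Of 17 cytokine and receptor genes, 2 were lower at an unadjusted p under 0.05, with a median of −0.10. Il2ra, the alpha chain of the IL-2 receptor, was at 29.8, 33.2 and 39.2 normalized counts with control mimic and at 17.2, 16.5 and 19.02 with miR-19a/19b mimics. Its groups were well apart (log2 difference −0.91, unadjusted p 0.00551 by limma). Il18, a cytokine that activates NK cells, had a difference of −0.53, with miR-19a/19b replicate 3 at the level of control mimic hearts. Il2rg and Jak3, which signal with the Il2rb chain, and Il15, its ligand, had log2 differences of −0.10, 0.09 and 0.20. These 3 were chosen after their values were seen.

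Among 15 chemokines and trafficking receptors of these cells, 7 were lower at an unadjusted p under 0.05, 6 lower without overlap, and the median log2 difference was −0.40. Ccl5, a chemokine made by NK and T cells, was at 107.2, 128.8 and 88.8 normalized counts with control mimic and at 52.7, 45.4 and 64.0 with miR-19a/19b mimics. Cx3cl1, the ligand of a receptor on mature NK cells, was at 881, 894 and 833 with control mimic and at 661, 608 and 599.9 with miR-19a/19b mimics. In both genes the groups were apart, with log2 differences of −0.99 (unadjusted p 0.00121) and −0.48 (unadjusted p 0.000778) and adjusted p of 0.791 and 0.632 by limma. Xcl1, a chemokine of NK and CD8 T cells, had a difference of −1.19, Cxcl9, a ligand of CXCR3, −0.68, and Cxcr6, a chemokine receptor of NK and T cells, −0.60.

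**Figure D4:**
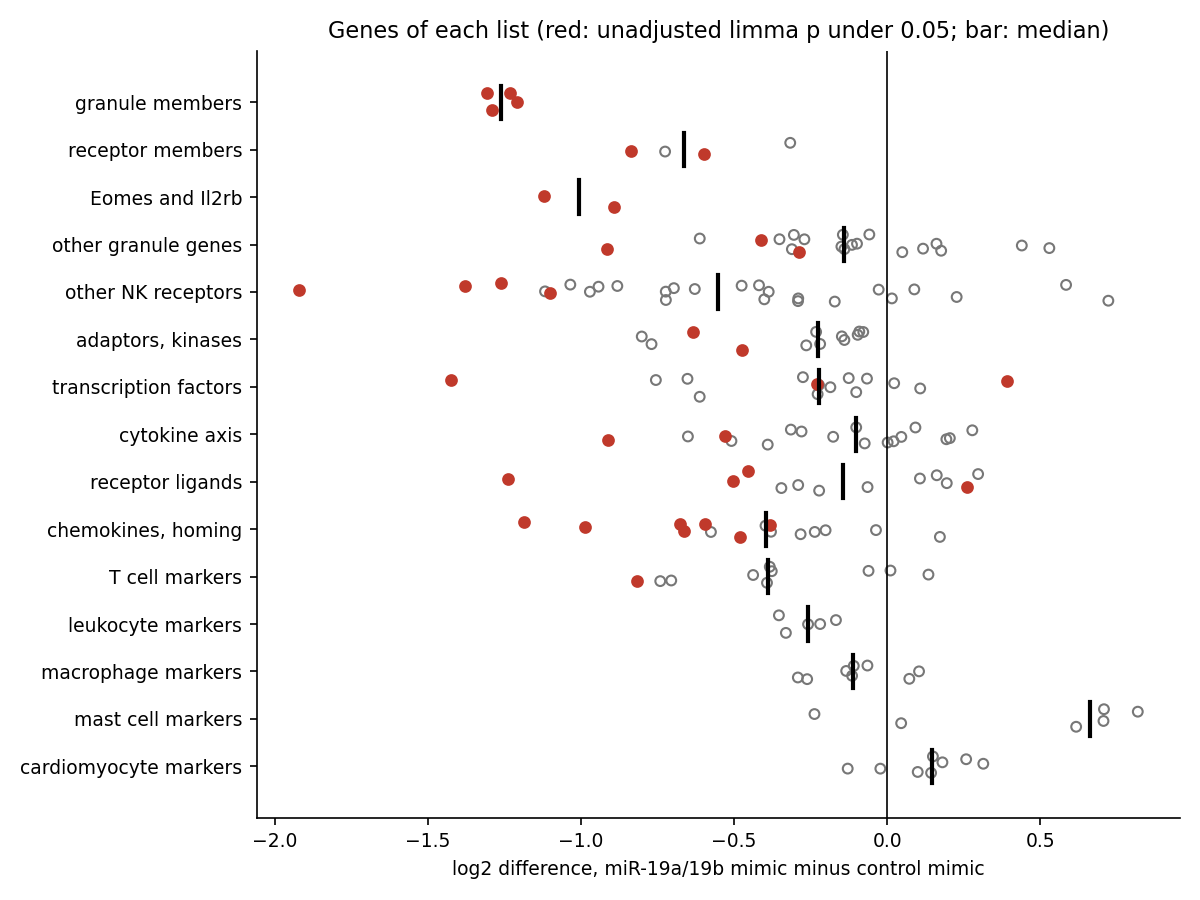
Log2 difference between miR-19a/19b and control mimic hearts (x axis, log2 of normalized count + 1) for each tested gene of the lists on the y axis. These are the 10 genes in separate rows for granule genes, receptor genes and regulators, the 7 related lists, and T cell, leukocyte, macrophage, mast cell and cardiomyocyte markers. Each point is a gene, red for an unadjusted p under 0.05 by limma, and each line is the median of its row. Medians are −1.26 for the granule genes, −0.66 for the receptor genes and −1.01 for Eomes and Il2rb. They are −0.55 for the other NK receptors and −0.40 for the trafficking genes.

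Promoter sequences of the members (RefSeq, GRCm38.p6, from 250 bases before to 50 bases after the start) were searched on both strands for 4 short motifs. Klrd1 and Il2rb were without an entry. A T-box core, AGGTGT, which Eomes and T-bet can bind, was in 3 of the 8 genes with a promoter, Gzma, Prf1 and Nkg7, and in 13.7% of 32851 promoters. The Runx core TGTGGT was in 7 of the 8, all but Eomes, and in 16.8% of promoters. The Ets core AGGAAG was in 3 of the 8 (35.4% of promoters) and the NFAT core TTTTCC in 1 (23.4%). The 3 promoters with a T-box core, all of granule genes, are printed as examples. Whether Eomes or T-bet acts on these genes in the hearts was not tested. Each runs 5′ to 3′ on the strand of its gene with every match to the 4 cores, or to its reverse complement, in capitals. Gzma is at chr13:113100932-113101231 (minus strand), Prf1 at chr10:61297586-61297885 (plus strand) and Nkg7 at chr7:43436888-43437187 (plus strand).
Gzma promoter: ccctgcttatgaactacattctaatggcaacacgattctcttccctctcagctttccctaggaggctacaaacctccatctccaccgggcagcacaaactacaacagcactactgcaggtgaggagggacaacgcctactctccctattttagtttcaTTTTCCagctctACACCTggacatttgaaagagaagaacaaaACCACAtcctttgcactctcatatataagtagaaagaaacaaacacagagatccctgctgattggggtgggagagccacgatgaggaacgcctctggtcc
Prf1 promoter: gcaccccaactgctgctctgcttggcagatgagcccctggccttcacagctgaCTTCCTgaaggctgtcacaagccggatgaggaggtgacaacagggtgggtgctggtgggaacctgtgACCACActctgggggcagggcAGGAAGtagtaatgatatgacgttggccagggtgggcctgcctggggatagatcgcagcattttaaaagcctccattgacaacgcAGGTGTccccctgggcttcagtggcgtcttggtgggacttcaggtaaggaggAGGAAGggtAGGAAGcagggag
Nkg7 promoter: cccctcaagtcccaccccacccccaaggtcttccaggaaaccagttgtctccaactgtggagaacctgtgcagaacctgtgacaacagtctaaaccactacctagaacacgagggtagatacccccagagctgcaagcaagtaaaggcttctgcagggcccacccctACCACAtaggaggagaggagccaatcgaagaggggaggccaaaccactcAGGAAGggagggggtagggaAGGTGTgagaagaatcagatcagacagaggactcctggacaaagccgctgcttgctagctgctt
The T-box core began 80 bases before the start in Gzma, on the other strand, 24 bases before it in Prf1 and 14 before it in Nkg7. Letters of this length occur in many promoters, and a match is no measurement of binding.

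The genes outside the list whose levels ran most like the 10 genes over the 6 hearts were ranked by Pearson's correlation with the mean of their standardized log2 values. Of 15503 genes whose mean reached 10, 138 had a correlation of 0.9 or more, and the 10 genes themselves ranged from 0.723 to 0.990 with a mean that includes them. The highest were Mgp at 0.986, Gm38057 at 0.983, Foxn2 at 0.982, Rmdn3 at 0.977 and H2-D1 at 0.977. Trim30b, Fbxo7, Ybey, Sh2d2a and Ereg followed, at 0.975, 0.975, 0.975, 0.974 and 0.974. Of these, Sh2d2a, which encodes the T cell adaptor TSAd, also had a log2 difference of the size of the 10 genes. It was at 48.6, 58.6 and 30.8 normalized counts with control mimic and at 12.9, 27.8 and 19.02 with miR-19a/19b mimics (log2 difference −1.18, unadjusted p 0.00841 by limma). The 6 points of each correlation share the 2 treatment groups and their libraries, so the values describe likeness in these hearts.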

How the data were processed

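RNA was sequenced from ventricles of 3 hearts given control mimic and 3 given miR-19a/19b mimics, which the study describes as biological replicates. The submitters' processing notes name STAR 2.5.1b, HTSeq 0.6.0, DESeq2 1.10.1 and the build mm9. The gene coordinates that the authors deposited match GRCm38 (of 25884 genes found in GENCODE M21, 82.74% had the same start and end), so GRCm38 is used. The signal that the authors deposited is a normalized count per gene, the read count divided by a size factor of the library. Every value (100% in each library, tolerance 0.02) divided into whole reads, so the reads could be recovered. The authors' fold changes, p-values and list of dysregulated genes were not used.

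Since the values are normalized, groups were compared with limma 3.58.1 (R 4.3.3, trended prior) on log2(normalized count + 1) for the 21126 of 26012 genes whose mean reached 1, with Benjamini-Hochberg adjustment. Alternatives were edgeR 4.0.16 (TMM or RLE), DESeq2 1.42.0 and limma-voom on recovered reads, no filter, at least 10 normalized counts in every heart, a pseudocount of 0.1, a replicate block and each heart left out. Scaling to leukocyte markers was added after seeing the data. In a simulation of 3 against 3 hearts, limma recovered 72% of the 200 genes given a 2-fold change, among 20606 tested. The changed genes were drawn from those with a mean of at least 10, and no simulated heart was made to stand apart. This share therefore does not give the recovery for the 10 genes in these hearts. The 10 genes and all lists were chosen with earlier results of these data known. Named genes are the 10 genes, each related gene with an unadjusted p under 0.05 and the 10 most alike, apart from items that are not reported here. Cd8a, Cd8b1, Thy1, Csf3r and Retnlg were picked from the marker lists after their values were seen. Of the related lists, 6 genes were not found and 6 had a mean below 1. No strand setting of the counting is given in the sources used here.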

Additional observations from a re-analysis of the deposited data

How the results depend on the processing

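None of the 10 genes passed an adjusted p under 0.05 in any alternative that tested it, and the smallest adjusted p among them was 0.0799 (Gzma, without miR-19a/19b replicate 3). DESeq2 gave an adjusted p for 6 of the 10, and 7 of the 10 had at least 10 normalized counts in every heart. The median log2 difference of the 10 genes, −1.01, ranged from −1.36 to −0.81 with 1 heart left out. The count of the 10 genes with an unadjusted p under 0.05, which was 8, ranged from 4 to 8 with 1 heart left out and was 4 when scaled to leukocyte markers. For the related lists the count of 25 ranged from 9 to 46 with 1 heart left out, was 7 when scaled to leukocyte markers and 15 with the replicate block. The log2 difference of Klrb1c, −0.32, ranged from −0.57 to 0.14 with 1 heart left out and was positive without control mimic replicate 2. That of Ncr1, −0.73, ranged from −1.33 (unadjusted p 0.0204, limma, without control mimic replicate 3) to −0.21 (0.709, without control mimic replicate 2). Of all genes, 29 passed the adjusted threshold with DESeq2 and 515 with limma without miR-19a/19b replicate 3, and 0 in the other settings.

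Deviations of hearts with the same replicate number correlated at 0.02, −0.22 and −0.33 over 14453 genes, so the numbers did not pair the hearts. With the replicate block, 8 of the 10 genes had an unadjusted p under 0.05 and the median was −1.01.

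The 10 genes had as few as 4 reads in a heart, and recovery of simulated differences was not measured at that depth alone. The cause of the changes between settings was not tested.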

Other observations

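Gzmb lies in a cluster of serine protease genes on chromosome 14 with other granzymes and mast cell proteases, and this cluster was chosen after its values were seen. Of the 7 tested genes listed there, Gzmb was the one with an unadjusted p under 0.05 (0.0147, limma) and a log2 difference of −1.31. Gzmc, next to it, was at 12.2, 0.976 and 3.74 normalized counts with control mimic and 4.30, 3.09 and 1.73 with miR-19a/19b mimics, and the groups overlapped. Gzmd, Gzme and Gzmn had log2 differences of 0.16, 0.53 and 0.44 at mean levels of 4.69, 7.43 and 1.54 normalized counts. Cma1 and Mcpt4, which encode mast cell chymases, had differences of 0.71 and 0.05. Of 6 tested mast cell markers, 5 had a positive log2 difference, as did 10728 of all 21126 genes tested. The median of the 6 was 0.66, and none had an unadjusted p under 0.05 in limma. The whole list of 7 summed to 508.2 to 574.8 normalized counts with control mimic and to 439.0 to 552.4 with miR-19a/19b mimics. These sums overlapped, with a miR-19a/19b mean of 90.1% of control mimic. Kit, with a difference of −0.24, held a mean of 496 of the 538 normalized counts with control mimic.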
